A study of Mus musculus with 24 samples.

Results

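The sites described here are those where SOX8 and SOX9 CUT&RUN peaks from mouse retina coincided at both ages studied. A core site was a SOX9 peak at postnatal day 17 (P17) that overlapped by at least 1 bp a peak in each of the other 3 SOX lists, which were SOX8 at P17, SOX8 at postnatal day 2 (P2) and SOX9 at P2. There were 922 core sites among the 2855 P17 SOX9 peaks (32.3%), and the other 1933 P17 SOX9 peaks lacked an overlap with at least 1 of the lists. The members were thus chosen by the overlap of the SOX peaks, and SOX overlap and widths are given as a description. The histone marks and gene starts were not used in the choice.

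The series holds 24 CUT&RUN libraries from whole retina of wild-type mice, with no genetic change or treatment in any group. In CUT&RUN an antibody on a chromatin protein tethers a nuclease, and the DNA cut free around it is sequenced. The 10 groups were SOX8, SOX9, H3K4me3, H3K27ac and a nonspecific IgG at P2 and at P17, with 4 SOX8 libraries at each age (2 antibodies, 2 replicates each) and 2 libraries for each other target. The deposited peak lists name no replicate, so no value has an error between animals. Whole retina mixes all its cell types, so a peak cannot be assigned to 1 of them, and fewer cells with a peak cannot be told apart from less of it per cell.

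SOX8 and SOX9 are related transcription factors of the SOXE group, which bind DNA through an HMG domain that recognises a short core sequence, ACAAT. In the eye, SOX9 is known in retinal progenitors and in Müller glia, the main glial cells of the retina. P2 retina still holds dividing progenitors, while P17 retina is largely differentiated. H3K4me3 marks the starts of genes, mostly active or poised ones, and H3K27ac marks active promoters and enhancers. A SOX site common to 2 proteins and 2 ages can thus be looked at for its place in the gene, its marks and the kind of gene it lies at.

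Core sites lay mainly at the starts of genes, and 6 such promoters show what DNA the bases common to all 4 SOX lists covered. They are the named genes with the longest shared bases whose whole promoter window lay within them, at most 1 gene per functional list, from RefSeq on build GRCm38.p6. Each window runs from 250 bases before the start to 50 bases after it. Tle3 lies on the plus strand at chr9:61372116-61372415, Mycn on the minus strand at chr12:12941787-12942086, and Hnrnpl on the plus strand at chr7:28810640-28810939. Hexim1 lies on the plus strand at chr11:103116075-103116374, Arid1b on the plus strand at chr17:4994824-4995123, and Fasn on the minus strand at chr11:120824498-120824797. Capitals mark the letters ACAAT or their reverse complement ATTGT, and CCAAT or its reverse complement ATTGG, the sequence known for binding by the general promoter factor NF-Y.
Tle3: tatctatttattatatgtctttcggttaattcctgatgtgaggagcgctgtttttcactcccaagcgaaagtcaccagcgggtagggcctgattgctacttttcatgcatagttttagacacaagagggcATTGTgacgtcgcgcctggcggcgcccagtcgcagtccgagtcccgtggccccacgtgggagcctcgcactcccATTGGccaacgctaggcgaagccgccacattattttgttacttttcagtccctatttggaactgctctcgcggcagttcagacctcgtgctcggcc
Mycn: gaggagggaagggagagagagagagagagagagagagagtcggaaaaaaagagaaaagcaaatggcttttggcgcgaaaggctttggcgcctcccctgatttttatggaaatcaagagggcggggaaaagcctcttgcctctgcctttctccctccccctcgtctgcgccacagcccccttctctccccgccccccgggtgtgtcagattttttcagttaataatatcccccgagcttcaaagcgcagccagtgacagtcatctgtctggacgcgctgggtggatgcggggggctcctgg
Hnrnpl: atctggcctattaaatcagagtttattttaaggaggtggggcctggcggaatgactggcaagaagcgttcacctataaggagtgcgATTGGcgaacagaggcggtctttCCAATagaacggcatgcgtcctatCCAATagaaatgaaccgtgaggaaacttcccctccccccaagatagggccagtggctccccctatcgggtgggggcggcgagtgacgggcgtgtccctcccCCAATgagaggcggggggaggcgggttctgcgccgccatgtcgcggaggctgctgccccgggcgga
Hexim1: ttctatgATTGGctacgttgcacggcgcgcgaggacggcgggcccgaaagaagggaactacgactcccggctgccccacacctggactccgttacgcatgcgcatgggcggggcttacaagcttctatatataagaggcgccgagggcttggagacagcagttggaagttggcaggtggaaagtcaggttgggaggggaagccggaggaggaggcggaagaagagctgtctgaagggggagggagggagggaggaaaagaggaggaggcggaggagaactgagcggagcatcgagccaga
Arid1b: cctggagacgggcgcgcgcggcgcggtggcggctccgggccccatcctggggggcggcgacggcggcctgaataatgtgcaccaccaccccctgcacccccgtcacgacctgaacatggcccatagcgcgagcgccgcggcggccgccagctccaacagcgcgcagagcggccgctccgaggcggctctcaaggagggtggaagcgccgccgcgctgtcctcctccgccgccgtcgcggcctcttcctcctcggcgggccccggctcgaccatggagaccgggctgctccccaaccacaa
Fasn: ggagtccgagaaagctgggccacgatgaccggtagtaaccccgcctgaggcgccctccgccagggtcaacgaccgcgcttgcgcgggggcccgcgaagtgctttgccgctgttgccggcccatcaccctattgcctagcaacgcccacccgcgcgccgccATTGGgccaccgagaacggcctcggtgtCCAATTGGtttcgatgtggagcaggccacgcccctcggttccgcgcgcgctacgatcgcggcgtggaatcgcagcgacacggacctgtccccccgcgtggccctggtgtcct
Only the Tle3 window of these 6 held ACAAT, at 1 place. Hnrnpl held CCAAT at 4 places and Fasn at 3, of which a pair overlap as CCAATTGG. Mycn and Arid1b held neither sequence.

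At these promoters the 4 SOX lists differed in width over the same start. Tle3, a Groucho-family corepressor, had a SOX9 peak of 5062 bp and a SOX8 peak of 5321 bp at P17, and peaks of 6676 bp and 5174 bp at P2, with 4169 bp common to all 4. Mycn, a growth-promoting transcription factor of progenitors, had 8073 bp for SOX9 and 4152 bp for SOX8 at P17, against 6550 bp and 6486 bp at P2. Hnrnpl, an RNA-binding splicing regulator, had 9457 bp and 4083 bp at P17, and 6102 bp and 4014 bp at P2. Fasn, the fatty acid synthase, had a P17 SOX9 peak of 22210 bp over peaks of 4068 bp, 5029 bp and 3465 bp for P17 SOX8, P2 SOX9 and P2 SOX8. Tle3 was thus of like width in all lists, while Fasn was wide in the P17 SOX9 list alone.

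Nearly all core sites held a stretch common to the 4 lists at once. Of the 922, 909 (98.6%) had at least 1 base inside a peak of every list, and the longest such stretch had a median of 2055 bp (interquartile range 1729 to 2461 bp). All bases common to the 4 lists made up a median of 55.0% of the P17 SOX9 site, over all 922 sites. The longest single stretch was at Cic, a DNA-binding repressor downstream of receptor tyrosine kinases, with 5474 bp. Most sites met a single peak of each other list: 892 sites for P17 SOX8, 905 for P2 SOX8 and 901 for P2 SOX9. Seen from the other lists, the core took up 954 of 2400 P17 SOX8 peaks (39.8%), 940 of 2653 P2 SOX8 peaks (35.4%) and 944 of 5476 P2 SOX9 peaks (17.2%).

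P17 SOX9 peaks were wider than the peak of each other SOX list at most core sites. Its median width was 3872.5 bp (120 to 30451 bp, or from 971 bp without a single site of 120 bp on chromosome 9), against a median of 2694.5 bp for the widest P17 SOX8 peak at the site, 3075 bp for P2 SOX9 and 2457.5 bp for P2 SOX8. The SOX9 peak at P17 was wider than the P17 SOX8 peak at 781 sites, than the P2 SOX8 peak at 824 and than the P2 SOX9 peak at 656. Over 10 kb lay 56 core sites in the P17 SOX9 list, 14 in P2 SOX9, 4 in P17 SOX8 and 0 in P2 SOX8. Across the 922 sites, widths were most alike between the 2 P2 lists (Spearman's rho 0.60) and between the 2 P17 lists (0.51). The rho between P2 and P17 SOX9 was 0.42, and that between P2 and P17 SOX8 was 0.46. These rho values describe sites that share libraries and local chromatin, and no test was made of them.

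**Figure D1:**
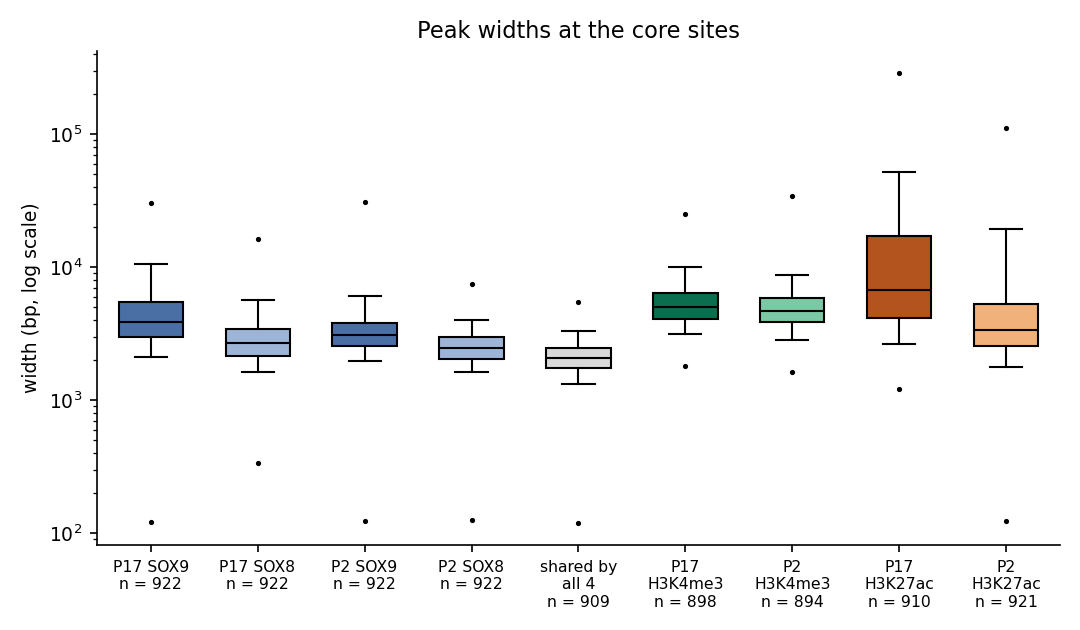
Widths in bp on a log axis at the core sites: the P17 SOX9 site, the widest overlapping peak of each other list, and the longest stretch shared by all 4 SOX lists. Boxes show the quartiles and median, whiskers the 5th to 95th percentile, single points the lowest and highest value, and n the sites that have the feature. The P17 SOX9 median of 3872.5 bp is above the other 3 SOX medians, and P17 H3K27ac has the widest spread.

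Core sites were narrower in the P17 SOX9 list than the other P17 SOX9 peaks, whose median was 5821 bp. In both P2 lists the order was the opposite. P2 SOX9 peaks that met a core site had a median of 3061 bp against 2574 bp for the rest, and P2 SOX8 peaks 2457 bp against 2092 bp. P17 SOX8 peaks at core sites had a median of 2687 bp against 3101 bp elsewhere.

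Individual sites were wide in different lists. Tbx2, a T-box factor of eye patterning, was wide for SOX9 at both ages (19119 bp at P2, 18181 bp at P17) and not for SOX8 (5162 and 5416 bp). Rax, a homeobox gene of the early eye field, showed the same order with 11262 and 10712 bp for SOX9 against 2780 and 3594 bp for SOX8. Kdm6b, an H3K27 demethylase, was wide for both proteins at P17 (SOX9 18535 bp, SOX8 16217 bp) and not at P2 (6583 and 3348 bp). Pmepa1, an inhibitor of TGF-beta signalling, was the reverse for SOX9, with 30864 bp at P2 and 5773 bp at P17. These 4 were picked after their widths were seen, as extremes of the 922.

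The H3K4me3 mark covered almost the whole core. A P17 H3K4me3 peak overlapped 898 of 922 core sites (97.4%) and 1000 of 1933 other P17 SOX9 peaks (51.7%), a difference of 45.7 percentage points (95% interval 43.1 to 48.0; two-sided Fisher's exact test, p adjusted over the 5 shares tested = 2.51e-162). Over all P17 SOX9 peaks the share was 66.5%. At P2 the mark overlapped 894 core sites (97.0%) and 855 other peaks (44.2%), a difference of 52.7 points (50.1 to 55.1; Fisher's exact test, adjusted p = 5.89e-198), with 61.3% over all. These tests take peaks as units and describe the deposited lists, since peaks are not replicates.

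H3K27ac lay at still more core sites. At P17 it overlapped 910 core sites (98.7%) and 1498 other peaks (77.5%), 21.2 points apart (19.2 to 23.2; Fisher's exact test, adjusted p = 5.28e-64), against 84.3% over all P17 SOX9 peaks. At P2 the overlap was 921 core sites (99.9%) and 1851 other peaks (95.8%), 4.13 points apart (3.18 to 5.13; Fisher's exact test, adjusted p = 4.34e-13), against 97.1% over all. The direction of this last difference turned when the P2 H3K27ac list was limited to its widest peaks, in the number of the P17 list: 53.4% of core sites and 58.5% of other peaks then overlapped one (Fisher's exact test, adjusted p = 0.0109). The P2 H3K27ac list is far longer than the others, with 287845 peaks of median 1166 bp, against 29909 of 3268 bp at P17.

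The shares were higher with each further SOX list that a P17 SOX9 peak met. Of 909 peaks that met no other list, 27.5% had P17 H3K4me3 and 16.6% P2 H3K4me3. Of 528 peaks that met 1 list the shares were 60.2% and 54.2%, and of 496 that met 2 they were 87.1% and 84.3%. P17 H3K27ac went from 64.6% through 82.2% and 96.2% to 98.7% in the core. Median width was lower at each of these steps, from 6237 bp through 5714 and 4410 bp to 3872.5 bp. When only the narrower 50% of P17 SOX9 peaks were compared, the P17 H3K4me3 difference between core and other peaks was 21.9 points, and among the wider 50% it was 57.9 points.

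**Figure D2:**
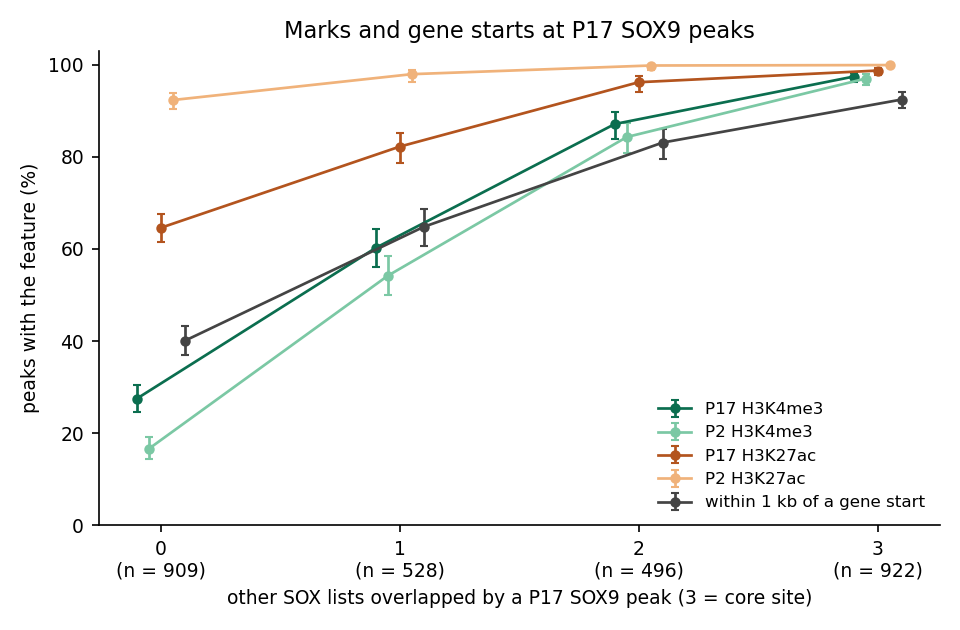
Percent of P17 SOX9 peaks that overlap each mark, or lie within 1 kb of a protein-coding gene start, by the number of other SOX lists they overlap, with 95% Wilson intervals that cover counting error only. All 5 shares are highest at 3 lists, the core, where P17 H3K4me3 reaches 97.4% and the promoter share 92.4%.

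Marks were mostly present together at the core. All 4 mark lists overlapped 875 core sites, and H3K4me3 was there at both ages at 886. It was there only at P17 at 12 sites, only at P2 at 8, and at neither age at 16. Tle2, another Groucho-family corepressor, had no H3K4me3 peak at P2 and one of 8492 bp at P17. Six5, a homeobox gene, had 4888 bp at P2 and none at P17, and P17 H3K27ac was absent there too. Only 1 other core site lacked both marks at P17, that same site of 120 bp, where the peaks of 3 other lists are of nearly the same length. Whether it is a true site was not tested.

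H3K4me3 peaks at core sites were broad beside the list as a whole. The widest P17 H3K4me3 peak at a core site had a median of 5045.5 bp (interquartile range 4099.75 to 6358.5 bp), against 3703 bp over all 9629 P17 H3K4me3 peaks. The P2 median was 4678.5 bp against 3542 bp over 9134 peaks. Other P17 SOX9 peaks with the mark had 4956.5 bp at P17 and 4196 bp at P2. Wide peaks meet another peak more easily, and the part of this in the gap to the whole list was not tested. Counted inside the P17 SOX9 site alone, H3K4me3 covered a median of 3474.5 bp at P17 and 3386.5 bp at P2. P17 H3K4me3 enclosed 458 core sites completely (49.7%), and 318 of the other P17 SOX9 peaks (16.5%). Of the peaks that had the mark at all, these were 458 of 898 and 318 of 1000. The other peaks were also wider, with a median of 5821 bp against 3872.5 bp, and a wider peak is harder to enclose.

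H3K27ac was wide at core sites as well, with a median of 6691 bp for the widest P17 peak and 3375 bp at P2. Here the other P17 SOX9 peaks had the higher medians, 9805 bp and 4448 bp. The core thus had the shorter acetylated stretches of the 2 classes and the more frequent H3K4me3.

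H3K4me3 width differed between the ages at several members. It was wider at P17 than at P2 at 548 of 886 core sites (61.9%), with a median log2 ratio of 0.10, against 0.13 at other P17 SOX9 peaks and 0.06 over all P17 H3K4me3 peaks shared with P2. Klf9, a Krüppel-like factor induced by glucocorticoid and thyroid hormone, went from 4697 bp at P2 to 15857 bp at P17. The site that spans Gnat1, the rod transducin alpha subunit, with Sema3f and Slc38a3 went from 5253 to 16094 bp. Those widths are of the widest mark peak at the site, which need not lie at the Gnat1 start. No base of that site was common to the 4 SOX lists. Crx, the photoreceptor homeobox gene, went from 11638 to 22398 bp. Cdkn1b, which encodes the cell cycle inhibitor p27, went from 17214 to 5858 bp. Pmepa1 went from 15184 to 6182 bp, and Zfp219, a zinc finger gene, from 13235 to 3894 bp. The largest relative change was at the site of Cyth2 and Kcnj14, from 3391 to 16298 bp. These genes were picked after the values were seen, and not strictly by size of change, and have no replicate check.

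Gene starts were the usual place of a core site. Within 1 kb of a protein-coding start lay 852 core sites (92.4%) and 1118 other P17 SOX9 peaks (57.8%), a difference of 34.6 points (31.7 to 37.3; Fisher's exact test, adjusted p = 4.53e-90), with 69% over all P17 SOX9 peaks. A start lay inside the site itself at 843. For 4395 of 21887 genes both gene ends stood for the start. Without those genes, 78.9% of core sites and 44.4% of other peaks lay within 1 kb of a start. Where the comparison was limited to peaks with H3K4me3 at both ages, 94.8% of 886 core sites and 92.6% of 813 other peaks were at a start, and the difference of 2.19 points no longer passed the test (Fisher's exact test, p adjusted over 3 shares = 0.0706). Among all peaks with P17 H3K4me3, whatever the mark at P2, it was 8.90 points (Fisher's exact test, adjusted p = 4.04e-10). Both limits were set after seeing the data. One gene had its start at 644 core sites, and 2 genes shared the site at 195.

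Where a start lay near the shared stretch, the stretch mostly sat on it. A strand-resolved start lay within 2 kb of the centre of the longest shared stretch at 702 core sites (76.1%). This limit bounds the distances that follow, which are not given for other peaks. At the 702 sites that centre lay a median of 5 bp downstream of the start (quartiles -174.5 and 197.75 bp, negative values upstream). It lay within 500 bp of the start at 611 sites (87.0%), downstream at 357 and upstream at 345. The start fell inside the shared stretch at 689 (98.1%).

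**Figure D3:**
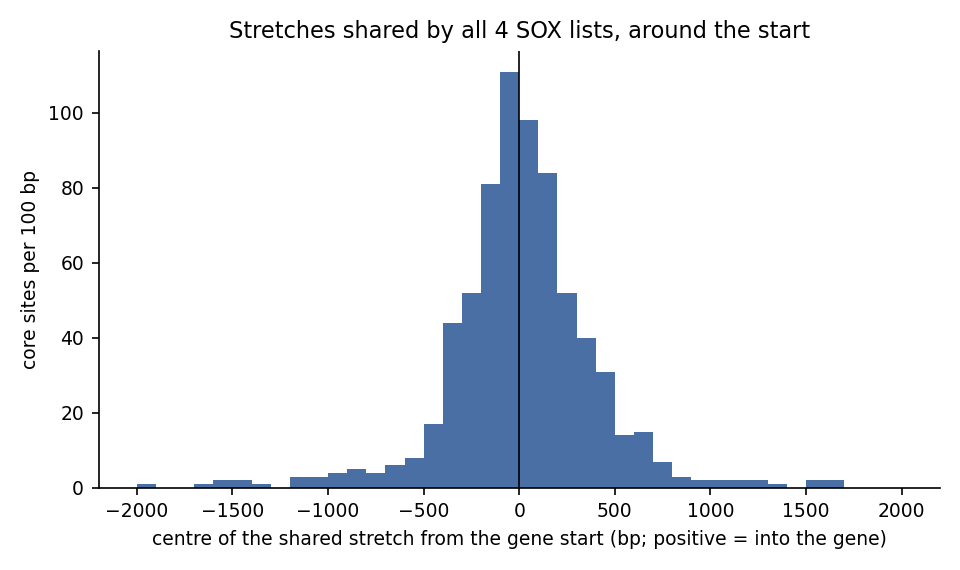
Number of core sites by distance in bp from the gene start to the centre of the longest stretch shared by all 4 SOX lists, in bins of 100 bp, for the 702 sites with a start within 2 kb. Positive values lie inside the gene. The distribution is centred on the start, with a median of 5 bp.

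Paired starts were common under core sites. Of 722 core sites over a start with known strand, 96 (13.3%, 95% Wilson interval 11.0 to 16.0%) held 2 starts within 1 kb that point apart, as at a bidirectional promoter. The share was 69 of 837 (8.24%, 6.57 to 10.3%) for other P17 SOX9 peaks and 669 of 7251 (9.23%, 8.58 to 9.91%) for P17 H3K4me3 peaks. Cbx5, which encodes a heterochromatin protein, starts 545 bp from the splicing factor gene Hnrnpa1, Hnrnpk 131 bp from Rmi1, and Trp53, the p53 gene, 109 bp from Wrap53. The Cbx5 and Hnrnpa1 site had SOX9 of 3294 bp and SOX8 of 2188 bp at P17, and 3492 and 3027 bp at P2. These pairs were picked after the sites were seen. These shares were not tested against each other.

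Away from protein-coding starts lay 70 core sites, 40 of them inside a gene body and 30 outside every protein-coding gene. P17 H3K4me3 was there at 53 of the 70, and 58 core sites in all were over 5 kb from every start. Over a long noncoding RNA gene lay 32 of the 70 (45.7%, 95% Wilson interval 34.6 to 57.3%), 24 of them with P17 H3K4me3. Of the 815 other P17 SOX9 peaks away from coding starts 132 did (16.2%, 13.8 to 18.9%), and 18.5% of both together. A microRNA gene lay under 4 of the 70 (5.71%) and 22 of the 815 (2.70%), or 2.94% of both. These shares were not tested. Malat1 and Neat1, abundant nuclear noncoding RNAs, each had a core site, of 7596 and 10029 bp. H3K4me3 was 13255 bp wide at the Malat1 site at P2 and 13294 bp at P17, and 3409 and 6357 bp at the Neat1 site. Mir22hg, the host of a microRNA, and the ubiquitously expressed Gt(ROSA)26Sor locus had core sites of 6381 and 3554 bp.

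Several noncoding loci known in neurons were among the 70. The site over Mir124-2hg and Mir124a-2, which encode a neuronal microRNA, was 15682 bp wide for P17 SOX9 and 16333 bp for P2 SOX9, against 2750 and 3072 bp for P17 and P2 SOX8. Its H3K4me3 was 17139 bp wide at P2 and 19259 bp at P17, but no base was common to the 4 lists. A second locus of that microRNA, Mir124a-3, had a site of 7473 bp with H3K4me3 of 8526 and 7345 bp. The noncoding gene C130071C03Rik, whose nearest protein-coding start is that of Mef2c, a transcription factor of neurons and muscle, had P2 SOX9 of 28401 bp, P17 SOX9 of 6589 bp, and H3K4me3 of 34586 bp at P2 and 25158 bp at P17. These loci were named after the overlap with noncoding genes was seen.

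Only 14 of the 70 had H3K4me3 at neither age. A pair inside Ccdc85c, of 12192 and 12309 bp, lay in 1 stretch of H3K27ac, 83176 bp wide at P2 and 72722 bp at P17.

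In genes, 1070 of 21887 protein-coding genes (4.89%) had a core site within 1 kb of a start. Of the 8924 genes with H3K4me3 at the start at both ages, 1031 (11.6%) had one. The second share is the closer background for genes that carry the mark at both ages, here called marked genes. Lists are read against both, as a share of all their genes against 4.89% and of their marked genes against 11.6%. Marked genes with a core site had wider H3K4me3 than the 8924 as a whole, with medians of 4708 bp at P2 and 5094 bp at P17 against 3607 and 3833.5 bp. The 940 marked genes with another P17 SOX9 peak only were in between, with 4137.5 and 4742.5 bp.

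Genes with wider H3K4me3 at the start more often had a core site. When the 8924 genes were ranked by P17 width, 30 of the 1785 narrowest had a core site (1.68%) and 497 of the 1784 widest (27.9%). Ranked by P2 width, the shares went from 2.80% to 28.0%. The same held for P17 SOX9 peaks of any kind, which lay at 5.88% of the genes with the narrowest P17 mark and 50.1% of those with the widest. Of the genes with a P17 SOX9 peak, 28.6% had a core site in the group with the narrowest P17 mark and 55.6% in that with the widest, with 57.6% in the group before it. The width's part in the differences between gene lists was not tested. The median width is given beside some of the lists.

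**Figure D4:**
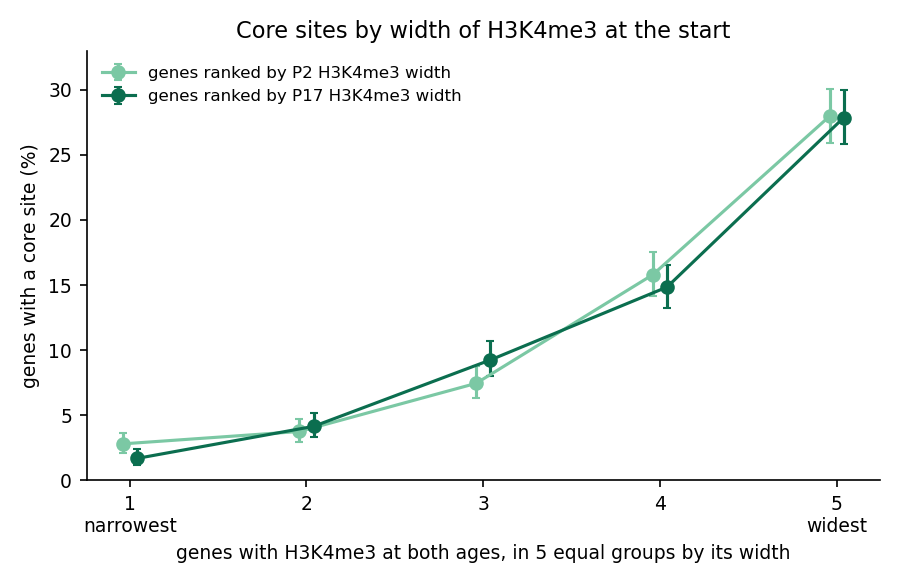
Percent of genes with a core site within 1 kb of a start, for the 8924 genes with H3K4me3 there at both ages, split into 5 equal groups by the width of the widest H3K4me3 peak at the start. Points carry 95% Wilson intervals, which cover counting error only. The share goes from 1.68% in the narrowest group to 27.9% in the widest for P17 width.

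RNA splicing factors had the highest share of the 28 lists over all matched genes. A core site lay at 20 of 59 SR and hnRNP genes (33.9%), or 37.0% of marked genes, which was under the 42.9% of KLF and SP factors and the 40% of immediate early genes, and their median H3K4me3 was 5311 bp at P2 and 5200 bp at P17. P17 SOX9 of any kind lay at 22 of the 59 starts. SR and hnRNP proteins bind RNA and choose splice sites. Among the 20 are Srsf2, Srsf5 and Srsf10 of the SR proteins, Hnrnpa1, Hnrnpa2b1, Hnrnpk and Hnrnpu of the hnRNP proteins, and Ptbp1, Pcbp1 and Pcbp2. Ptbp1, a splicing repressor that neurons turn off, had SOX9 of 9349 bp and SOX8 of 3726 bp at P17 and 3658 and 3478 bp at P2, but no base common to all. Pcbp1 had 4819 and 2358 bp at P17, and 3682 and 2816 bp at P2. DEAD-box helicases, which unwind RNA, had 5 of 53 (9.43%, or 11.4% of marked genes), and genes named for RNA-binding motifs (Rbm) 2 of 38 (7.69% of marked genes).

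Transcription factors of the KLF and SP family, which bind GC-rich promoters, had 6 of 26, or 42.9% of the 14 marked genes. They were Klf9, Klf11, Klf13, Sp2, Sp3 and Sp4. P17 SOX9 of any kind lay at 11 of the 26 starts. Median H3K4me3 width at the starts of this list was 4907.5 bp at P2 and 5110 bp at P17. Sp4 had SOX9 of 5093 bp and SOX8 of 2726 bp at P17, and 2477 and 2408 bp at P2. Immediate early genes, which respond fast to stimulation, had 8 of 30, or 40% of marked genes. They were Fos, Fosb, Jun, Junb, Jund, Ier2, Btg2 and Dusp1. P17 SOX9 of any kind lay at 18 of the 30 immediate early starts, so many of those starts with P17 SOX9 were outside the core. Median H3K4me3 of the list was 6207 bp at P2 and 5893 bp at P17. Jund had 10202 bp for SOX9 and 8215 bp for SOX8 at P17 against 5013 and 4027 bp at P2. Junb, wide for P17 SOX9 at 16663 bp in a site that also spans Hook2 and Prdx2, had no base common to all 4 lists. The family of zinc finger proteins named Zfp had 18 of 397 (4.53%), near the share over all genes, and 7.09% of its 254 marked genes, under the 11.6% of all marked genes.

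Chromatin regulators had shares of 16% to 23.8% in 6 lists, against 4.89% of all genes, and of 18.2% to 26.3% of marked genes, against 11.6%. Histone demethylases had 5 of 21, acetylation factors 7 of 35, methyltransferases 6 of 31, ATP-dependent remodellers outside the BAF complex 5 of 28, the Polycomb group 5 of 29 and BAF subunits 4 of 25. In the same order, P17 SOX9 peaks of any kind lay at 8, 13, 12, 10, 8 and 8 starts. Over all marked genes, 1031 had a core site and 940 another P17 SOX9 peak only. Whether these lists differ from P17 SOX9 peaks in general was not tested. Setd1b, of the complexes that lay down H3K4me3, had SOX peaks of like width in all lists: SOX9 of 9711 bp and SOX8 of 8358 bp at P17, and 10001 and 7484 bp at P2. Its own H3K4me3 was 11744 bp at P2 and 12552 bp at P17. Ep300, the p300 acetyltransferase that lays down H3K27ac, had 3131 and 3307 bp at P17, and 2929 and 2447 bp at P2. Kmt2b, Kmt2c, Kmt2e and Setd1a, further H3K4 methyltransferase or related genes, and Chd4, Ino80, Bmi1 and Jarid2 also had a core site. The general transcription machinery was lower, with 7 of 60 genes of RNA polymerase II, Mediator and elongation (11.7%, or 12.3% of marked genes). These 7 included Polr2a, the largest polymerase subunit, with the elongation kinases Cdk9 and Cdk13 and the inhibitor Hexim1.

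Signalling genes formed a further group. In mTOR and insulin signalling 12 of 47 had a core site (25.5%, or 27.9% of marked genes), among them Igf1r, Irs1, Akt2, Rheb and Mlst8. Pik3r2, a regulatory subunit of phosphoinositide 3-kinase, had SOX9 of 14364 bp and SOX8 of 3387 bp at P17, and 3971 and 2202 bp at P2. Wnt transducers had 8 of 32 (29.2% of marked genes), with the corepressors Tle1, Tle2 and Tle3, and Dvl2 and Gsk3a. TGF-beta and BMP transducers had 6 of 25 (33.3% of marked genes), of which Smad7, Smurf1, Pmepa1 and Skil act as inhibitors. Smurf1, a ubiquitin ligase for receptors and SMADs, had 4110 and 4153 bp at P17, and 3985 and 2777 bp at P2. The MAP kinase cascade had 7 of 49 genes (20.6% of marked genes) and subunits of protein phosphatases 1 and 2 had 8 of 61 (18.6%). P17 SOX9 of any kind lay at 18 mTOR and insulin, 13 Wnt and 11 TGF-beta and BMP starts. It lay at 12 starts of the MAP kinase cascade and 14 of the phosphatase subunits.

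Protein homeostasis genes were above both backgrounds in most lists. Chaperones and 14-3-3 proteins had 7 of 26 (26.9%, or 36.8% of marked genes), including Hspa8, Hsp90aa1, Hsp90ab1 and Hsp90b1. Hspa8, the constitutive cytosolic chaperone, had 4409 and 3092 bp at P17, and 4006 and 3676 bp at P2. Ubiquitin and cullin ligase genes had 8 of 41 (21.1% of marked genes), F-box genes 12 of 78 (23.9%), ubiquitin-specific proteases 6 of 56 (14.6%) and RING finger genes 7 of 83 (10.7%, under the 11.6%). P17 SOX9 of any kind lay at 8 chaperone and 14-3-3, 13 ubiquitin and cullin ligase and 16 F-box starts. It lay at 12 ubiquitin-specific protease and 11 RING finger starts. Translation initiation factors had 6 of 39, or 15.4%, and all 39 were marked. Sterol and fatty acid synthesis had 4 of 32 (16% of marked genes).

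Some other groups were close to or under the share over all genes, and under that of marked genes. Nuclear oxidative phosphorylation genes had 3 of 58 (5.17%), or 5.26% of those with H3K4me3 against 11.6% of all such genes. H3K4me3 was at 57 of these 58 starts at both ages, with medians of 3382 bp at P2 and 3905 bp at P17. Cytosolic ribosomal proteins had 4 of 80 (5.19% of marked genes), mitochondrial ribosomal proteins 2 of 78 (2.74%) and kinesins 1 of 38 (5%). The mark was thus present at nearly all of the oxidative phosphorylation starts and a core site at few. Its medians there were under the 3607 bp of all marked genes at P2, and above their 3833.5 bp at P17.

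**Figure D5:**
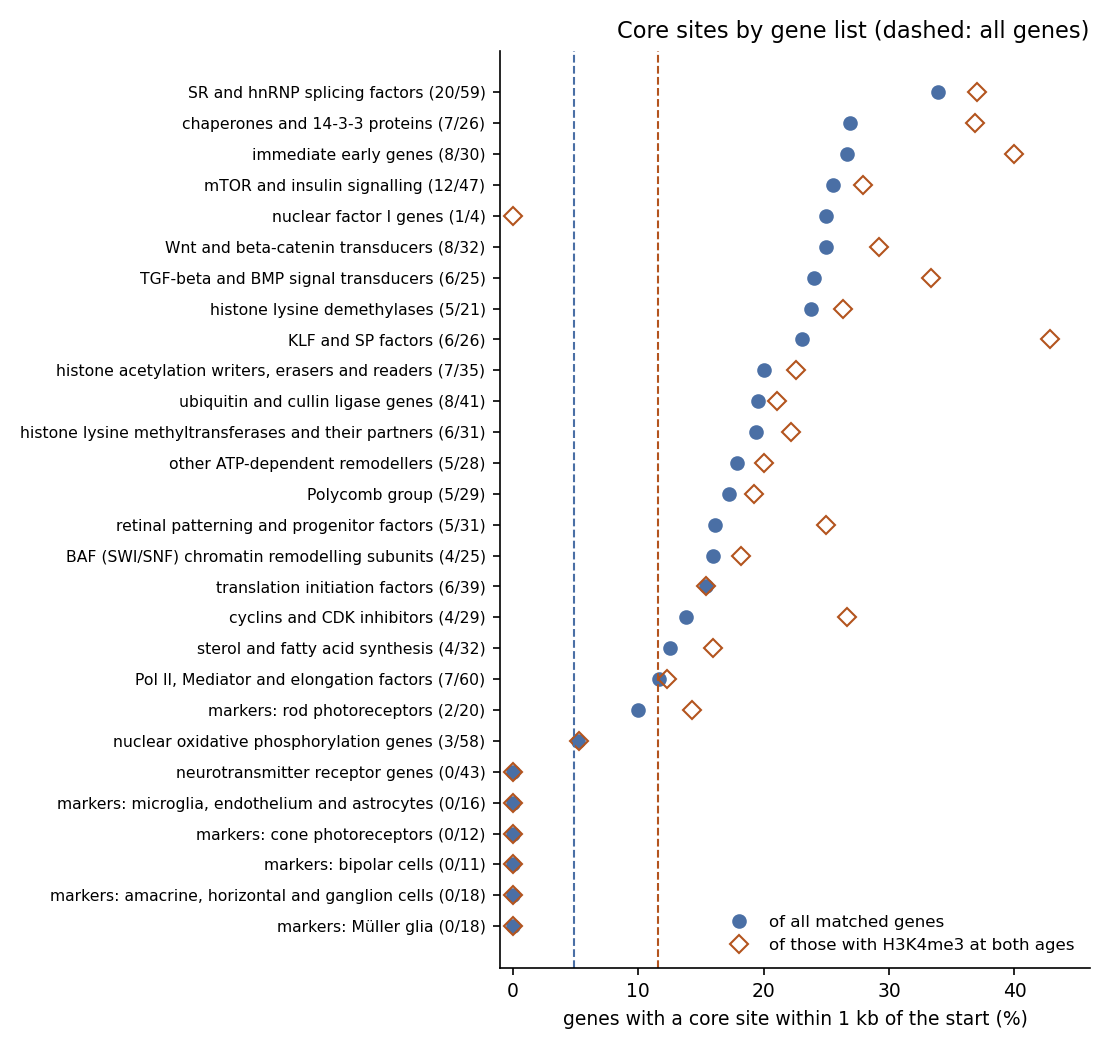
Percent of genes with a core site within 1 kb of a start in each of 28 gene lists, over all matched genes (filled circles) and over those with H3K4me3 at the start at both ages (open diamonds). Dashed lines give the same shares over all protein-coding genes, 4.89% and 11.6%, and the numbers in brackets are genes with a core site and genes matched. Splicing factors are highest of the filled circles, and 6 lists are at 0.

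Among 31 retinal patterning and progenitor factors, 5 had a core site (16.1%, or 25% of the 20 marked genes): Tbx2, Rax, Hes5, Mycn and Meis1. Their list had wide H3K4me3, with medians of 9264.5 bp at P2 and 8923.5 bp at P17. Of the 1784 marked genes with the widest P17 mark, 27.9% had a core site. All but 2 of the 31 had a P2 SOX9 peak at the start (29), while 11 had P17 SOX9 and 4 P17 SOX8. Hes5, a Notch target, lay in a site that also spans Pank4. SOX8 peaks at that site were 7140 bp wide at P2 and 1492 bp at P17, and SOX9 peaks 7697 and 9342 bp. The stretch common to all 4 lists, 1269 bp long, lay over the start of Pank4. Of 29 cyclins, CDK inhibitors and related cell cycle genes 4 had a core site (26.7% of marked genes): Cdkn1b, Cdk4, E2f3 and Trp53.

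Whole retina was checked against its most common neurons, and P17 retina had P17 H3K4me3 at 19 of 20 rod marker starts, P2 retina at 7. Over the 6 lists of cell type markers, 2 of 95 entries had a core site (2.11%), and 1 of the 21 marked ones. Lists this short hold few marked genes, so a count of 0 says little. No core site lay at the start of 18 Müller glia markers, 12 of cones, 11 of bipolar cells, 18 of amacrine, horizontal and ganglion cells, or 16 of microglia, endothelium and astrocytes. P2 SOX9 was at 6 of the 18 Müller glia starts and P17 SOX9 at 1. Rod markers had 2 of 20 (10%, or 14.3% of 7 marked genes), Crx and Gnat1, although P17 SOX9 was at 14 of the 20 starts, P17 SOX8 at 4 and P2 SOX8 at 3. At the Gnat1 site, which also spans Sema3f and Slc38a3, no base was common to the 4 lists. Neurotransmitter receptors had 0 of 43, olfactory receptors 0 of 1110, collagens 0 of 44 and Hox genes 0 of 39. Only 4 of the 18 Müller glia starts and 10 of the 43 neurotransmitter receptor starts had H3K4me3 at both ages, so few of them could be compared with other marked genes. No olfactory receptor or Hox start had it at both ages, nor a peak of any SOX list, and 2 of the 44 collagen starts had it. Those counts of 0 thus allow no comparison with marked genes.

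Promoters in core sites were rich in GC and CpG. Of 1095 windows of 300 bases that lay within a core site, the median GC content was 65.7% and the median ratio of observed to expected CpG 0.85. The 8557 windows within H3K4me3 at both ages had 63.3% and 0.83, and all 21255 windows 56.3% and 0.57. The SOX core letters ACAAT, searched on both strands, were in 15.8% of core windows, 17.7% of those with H3K4me3, 14.7% of those in other P17 SOX9 peaks and 27.7% of all. At like GC content the core share was close to that with H3K4me3: 12.4% against 12.6% at 60 to 70% GC, and 9.19% against 8.31% at 70% or more. At 50 to 60% GC it was the higher of them, in 66 of 218 windows against 664 of 2455. The longer form ACAATG was in 6.30%, 6.38% and 11.0%. A search for letters is a description, and it says nothing of where either factor binds.

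CCAAT, on both strands, was in 43.3% of core windows, 38.1% of those with H3K4me3 and 33.9% of 1151 windows in other P17 SOX9 peaks. All windows together had 38.2%. CCAAT was rarest in windows of 70% GC or more, so its share was also read at like GC content. At 60 to 70% GC it was 49.4% of 482 core windows and 39.7% of 3505 with H3K4me3, at 50 to 60% it was 53.2% and 45.4%, and at 70% or more 29.2% and 24.1%. Below 50% GC, with 36 core windows, it was 41.7% and 45.4%. GGGCGG, the letters that SP factors bind, was in 78.3% of core windows, 70.3% of those with H3K4me3 and 46.2% of all. At like GC content most of this gap was gone, with 55.0% against 52.2% at 50 to 60% GC, 81.5% against 78.5% at 60 to 70%, and 93.3% against 92.2% at 70% or more. None of these shares was tested.

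The threshold of 1 bp placed few sites by a narrow margin. Just inside it, Nr1h2 met its P17 SOX8 peak by 87 bp and the site at Gys1 and Ruvbl2 by 155 bp. Just outside, a P17 SOX9 peak nearest Cibar2 missed P17 SOX8 by 74 bp, and the one at Ssbp4 missed P2 SOX8 by 250 bp. When the overlap had to reach 50% of the shorter peak, 913 sites were core.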

How the data were processed

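The deposited data are 8 peak lists, 1 for each of 4 targets and 2 ages. They hold chromosome, start and end, and the score was 0 for every peak per the files deposited by the authors, so no height or p-value could be used. Per the labels' protocols, 600000 nuclei went into each CUT&RUN reaction. The submitters' processing notes name Bowtie2, SEACR and GRCm38. Threshold, use of IgG and combining of replicates are not given in the sources used here. IgG libraries were not analysed here, and depth is unknown.

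Overlaps, Fisher's exact tests (SciPy 1.17.1, Benjamini-Hochberg over 5 shares, threshold 0.05) and Wilson or Newcombe 95% intervals were computed in Python 3.11.15, and checked on simulated data. Intervals cover counting error only. Peaks were taken as units, though neighbouring peaks are not independent. Starts came from the RefSeq promoter table (GRCm38.p6), and for 4395 of 21887 genes without an entry both gene ends stood for the start. For each list, up to 4 genes with the widest core site were to be named, besides extremes by mark, width, distance and overlap, and core sites on X. Members and lists were chosen with earlier results of these data known. Alternatives changed overlap, width, mark, promoter and gene rules.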

Additional observations from a re-analysis of the deposited data

How the results depend on the processing

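Of 46 recomputed differences in shares, 44 kept their direction and their side of the threshold. The P2 H3K27ac difference reversed to -5.10 points with the widest P2 H3K27ac peaks in the P17 number, where 53.4% of core sites and 58.5% of other peaks overlapped one; the cause was not tested. The promoter difference fell to 2.19 points (Fisher's exact test, adjusted p = 0.0706) among peaks with H3K4me3 at both ages, an alternative added after seeing the data, as were the limits to peaks with P17 H3K4me3 and to starts of the promoter table. The number of core sites was 340 with all SOX peaks trimmed to 500 bp around their centres and 243 in the wider 50% of P17 SOX9 peaks, which by construction hold fewer bases or fewer peaks. Median mark widths taken over the widest whole peak were 5045.5 bp for P17 H3K4me3, 6691 bp for P17 H3K27ac, 4678.5 bp for P2 H3K4me3 and 3375 bp for P2 H3K27ac, against 3474.5, 3445.5, 3386.5 and 2993 bp inside the site. With a gene counted over its body and 5 kb on either side, 23 of 28 list counts stayed within 1.5 times; BAF subunits went from 4 to 8 and the Polycomb group from 5 to 8, and neurotransmitter receptors, cone markers and markers of microglia, endothelium and astrocytes from 0 to 1 each. With the start itself, or an overlap of 50% of the shorter peak, 28 of 28 stayed within 1.5 times. No paired analysis was possible because the lists name no replicate, and for the same reason no replicate could be left out. A weak site missed in 1 list cannot be told apart from an absent one at unknown depth.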

Other observations

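Further gene groups in the core were looked up after its genes had been seen, so their counts only describe it and are not set against chance. Circadian clock genes had a core site at 9 of 27 starts, namely Per1, Per2, Cry1, Arntl, Nr1d1, Nr1d2, Tef, Cipc and Csnk1d. They made up 33.3% of the list, beside 4.89% of all genes. Of the marked clock genes 40.9% had a core site, beside 11.6% of all marked genes. Per1, a repressor of the clock, had SOX9 of 11634 bp and SOX8 of 7115 bp at P17, against 4166 and 2447 bp at P2. Nr1d1, a nuclear receptor of the clock whose site spans Thra, had 10495 and 6306 bp at P17, and 2877 and 3053 bp at P2. Arntl, which encodes the activator BMAL1, was of like width throughout, with 2738 and 2661 bp at P17 and 2939 and 2485 bp at P2. A list of glycolysis genes that also held pyruvate carrier genes had 8 of 25 (32%, or 38.1% of marked genes). They were Aldoa, Gapdh, Eno1, Pkm, Pfkfb2 and Pfkfb3, with the carrier genes Mpc1 and Mpc2. H3K4me3 at the starts of the list had a median of 4097 bp at P2 and 6582 bp at P17. Aldoa, the aldolase of glycolysis, went from 5697 bp of H3K4me3 at P2 to 13614 bp at P17, and Pkm, pyruvate kinase, from 6360 to 12303 bp.

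The shares that follow stand beside 4.89% of all genes and 11.6% of marked genes. High mobility group and heterochromatin proteins had 8 of 14 (57.1%, or 61.5% of marked genes), among them Hmgn1, Hmgn2, Hmgb1, Hmga1, Cbx3 and Cbx5. BTG, TOB and SERTAD genes, put together here as 1 group, had 6 of 10 (60%, or 66.7% of marked genes). Genes of cohesin, CTCF and DNA topology had 6 of 16 (37.5%, or 42.9% of marked genes), namely Ctcf, Yy1, Stag1, Smc3, Top2b and Zfp143. Of the 3 NF-Y subunit genes, all of them marked, Nfya and Nfyc had a core site. The integrated stress response had 4 of 16 (25%, or 36.4% of marked genes), namely Atf4, Atf5, Ddit3 and Ddit4. The B56 subunits of phosphatase 2A had 3 of 5 (60%), and all 5 were marked. Families chosen by symbol after the fact had 10 of 41 for Zbtb (24.4%), 5 of 22 for Phf (22.7%), 4 of 24 for Dusp (16.7%) and 7 of 37 for Ube2 (18.9%). Of their marked genes the shares were 28.6%, 31.25%, 25% and 24.1%. Trim genes had 5 of 68 (7.35%), the closest of these families to the share over all genes, and 20.8% of their marked genes.

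The X chromosome held 3 core sites (0.325%), while 2.88% of P17 H3K4me3 peaks were on it. They were at the starts of Ddx3x and Usp9x and inside Bcor. The share of X was low in each SOX list, from 0.25% of P17 SOX8 peaks to 0.877% of P2 SOX9 peaks. The narrowest core site was 120 bp long on chromosome 9, 333702 bp from the nearest start, that of Alkbh8. P2 SOX9 was 122 bp there, P2 SOX8 125 bp, P2 H3K27ac 124 bp and P17 SOX8 449 bp, and H3K4me3 was absent at both ages. The next narrowest core site, at Smdt1, was 971 bp. Peaks of nearly equal length in 4 lists set this site apart from the rest, and whether it should be kept was not tested.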
